A study of Homo sapiens with 6 samples.

Results

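The 9 genes described here encode the enzymes of the urea cycle with the activator and the carrier it depends on (NAGS, CPS1, OTC, SLC25A15, ASS1, ASL and ARG1), and the 2 enzymes that make glutamine and that release ammonia from glutamate (GLUL and GLUD1). They were taken by symbol from 19775 genes that carry 1 symbol on the array, and 18 probe sets named them. In clone D20, which carries a plasmid against SDHB, CPS1, ARG1, SLC25A15, GLUL and GLUD1 were lower than in the control clone, while ASS1, ASL and NAGS did not pass the test and OTC was too dim to be tested. As ratios of mean signals the falls were 1.99-fold for SLC25A15, 2.41- to 3.38-fold for the probe sets of GLUD1 and 3.02- to 4.90-fold for those of GLUL. CPS1 and ARG1 were dim in D20, so that the size of their falls depends on the processing (log2 fold changes of -3.77 to -1.61 and of -3.31 to -2.06). No member was higher.

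RNA came from Hep3B, an established human hepatocellular carcinoma line, and was measured on 6 Affymetrix arrays (HG-U133 Plus 2.0). The control group was 3 arrays, named A, B and C, of clone 2 carrying plasmid pU6, and the other group was 3 arrays, with the same letters, of clone D20 carrying plasmid siSDHB, which the labels describe as knocked down for SDHB, a subunit of succinate dehydrogenase. Both clones were kept in MEM with 10% heat-inactivated fetal bovine serum, 2 mM L-glutamine, 1 mM non-essential amino acids and 1 mM sodium pyruvate, with G418 at 400 µg/ml, so glutamine was supplied to both. Each group is a single clone grown under drug selection, and silencing and clonal differences cannot be told apart. The labels do not say whether a clone's arrays came from separate cultures, so p-values measure the spread between these arrays, which may be technical. The SDHB signal was not analysed here.

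The urea cycle turns ammonia into urea and runs as a whole mainly in periportal hepatocytes, with its first steps in the mitochondrion and the later ones in the cytosol. NAGS makes N-acetylglutamate, without which CPS1 is inactive. CPS1 fixes ammonia as carbamoyl phosphate, OTC joins it to ornithine, the carrier SLC25A15 brings ornithine in and takes citrulline out, and ASS1, ASL and ARG1 then form argininosuccinate, arginine and finally urea and ornithine. GLUL, glutamine synthetase, binds the ammonia that escapes the cycle and in normal liver is confined to hepatocytes around the central vein. GLUD1, glutamate dehydrogenase of the mitochondrion, interconverts glutamate with 2-oxoglutarate and ammonia, and so links these pathways to the tricarboxylic acid cycle, in which succinate dehydrogenase works.

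The sequences before the start sites of the 5 genes that fell are shown with that of ASS1, which did not pass the test, because they differ in base composition among genes that moved together. They were taken from RefSeq (GRCh38.p14), are the 120 bases before an annotated start and are read 5′ to 3′ on the gene's strand. Capitals mark TATAAA, the core of a TATA box. They also mark CCAAT, an element found upstream of many start sites, and the GC box, searched for as GGGCGG, each as written or as its reverse complement. For CPS1 the most upstream of the 3 RefSeq starts at hand is given. GLUL and ASS1 also have another start at hand, and for them too the most upstream is given. The arrays do not tell which start was used.
CPS1, chr2:210477565-210477684, plus strand: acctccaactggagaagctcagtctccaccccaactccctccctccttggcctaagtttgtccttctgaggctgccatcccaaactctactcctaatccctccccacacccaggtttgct
ARG1, chr6:131573106-131573225, plus strand: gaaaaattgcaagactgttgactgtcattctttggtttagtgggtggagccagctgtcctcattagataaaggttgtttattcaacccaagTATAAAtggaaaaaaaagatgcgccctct
SLC25A15, chr13:40789491-40789610, plus strand: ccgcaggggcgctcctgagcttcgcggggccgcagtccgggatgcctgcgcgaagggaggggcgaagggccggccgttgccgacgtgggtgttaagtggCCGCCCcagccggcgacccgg
GLUL, chr1:182391791-182391910, minus strand: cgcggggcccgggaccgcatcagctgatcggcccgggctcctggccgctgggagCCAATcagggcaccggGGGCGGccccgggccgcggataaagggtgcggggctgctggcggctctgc
GLUD1, chr10:87094844-87094963, minus strand: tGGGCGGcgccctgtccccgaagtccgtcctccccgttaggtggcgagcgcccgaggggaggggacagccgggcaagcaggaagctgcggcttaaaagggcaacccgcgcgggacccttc
ASS1, chr9:130444587-130444706, plus strand: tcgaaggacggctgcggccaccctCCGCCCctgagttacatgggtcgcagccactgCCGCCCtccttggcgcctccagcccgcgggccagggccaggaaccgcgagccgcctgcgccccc

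TATAAA stands 29 bases before the ARG1 start and is not in the other 5 sequences shown. Of 35116 RefSeq promoter windows of 250 bases before a start, TATAAA was held by 10.7%, CCAAT by 32% and GGGCGG by 42.6%, with both strands searched. In its whole window the GLUL promoter shown held CCAAT 66 and 128 bases and GGGCGG 50 and 221 bases before the start. The share of G and C in the 250 bases before the start was 37.6% for ARG1 and 48.4% for the CPS1 start shown, against a median of 58% over all promoters. It was higher for the other genes that fell, 79.6% for SLC25A15, 74.8% for GLUL and 80.4% for GLUD1, and also for genes that were not called, 68.4% for ASS1, 74% for ASL and 65.6% for NAGS. The other starts at hand had 40% and 33.6% for CPS1, 71.2% for GLUL and 78.8% for ASS1. Genes with high and with low content were thus among those that fell. CTTTGAT, a sequence bound by TCF/LEF factors, was present in 2.26% of all promoters and, among those of the members, in that of OTC only. These are matches of letters and not measured binding sites.

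Each value below is a signal in linear intensity units, 1 per probe set and array, and levels are not compared between probe sets. Clones were compared by limma on log2(signal + 16) with Benjamini-Hochberg adjustment over the 32768 probe sets that remained after the 40% dimmest had been left out, and a probe set was called at an adjusted p below 0.05. Differences are log2 fold changes, D20 minus control, with the standard error, and the pseudocount makes them smaller for dim probe sets. Of the 18 member probe sets 13 were tested, for 8 genes. Of these, 10 were called lower and 3 were not called, against 17.0% of all probe sets tested that were called lower, 19.5% called higher and 36.5% called in either direction. None of the 13 was called higher by limma, and none was higher at an unadjusted p below 0.05. Their median log2 fold change was -1.58, against 0.03 for all probe sets tested, and 9 of them were called and at least 2-fold lower, where 7.10% of all probe sets tested lay at or below a log2 fold change of -1. Taking the brightest tested probe set of each gene, 5 genes were lower, 3 were not called and 0 were higher, where 20.8% of 13781 genes were lower and 23.7% were higher. In 10 of the 13 the arrays of one clone did not overlap with those of the other, as was so for 47.2% of all probe sets tested. The 2 probe sets of CPS1 had D20 means below the signal of 43.2 at which the dimmest were left out, so they entered the test through the control arrays. The filter used means of log2(signal + 16), and on that scale the D20 mean of ARG1 206177_s_at was below it as well. That probe set thus also entered through the control arrays. The counts and the median above include these probe sets of CPS1 and ARG1. The members were chosen with earlier results of these data known. The shares over all probe sets are thus given as a description and not as a test of the members.

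**Figure D1:**
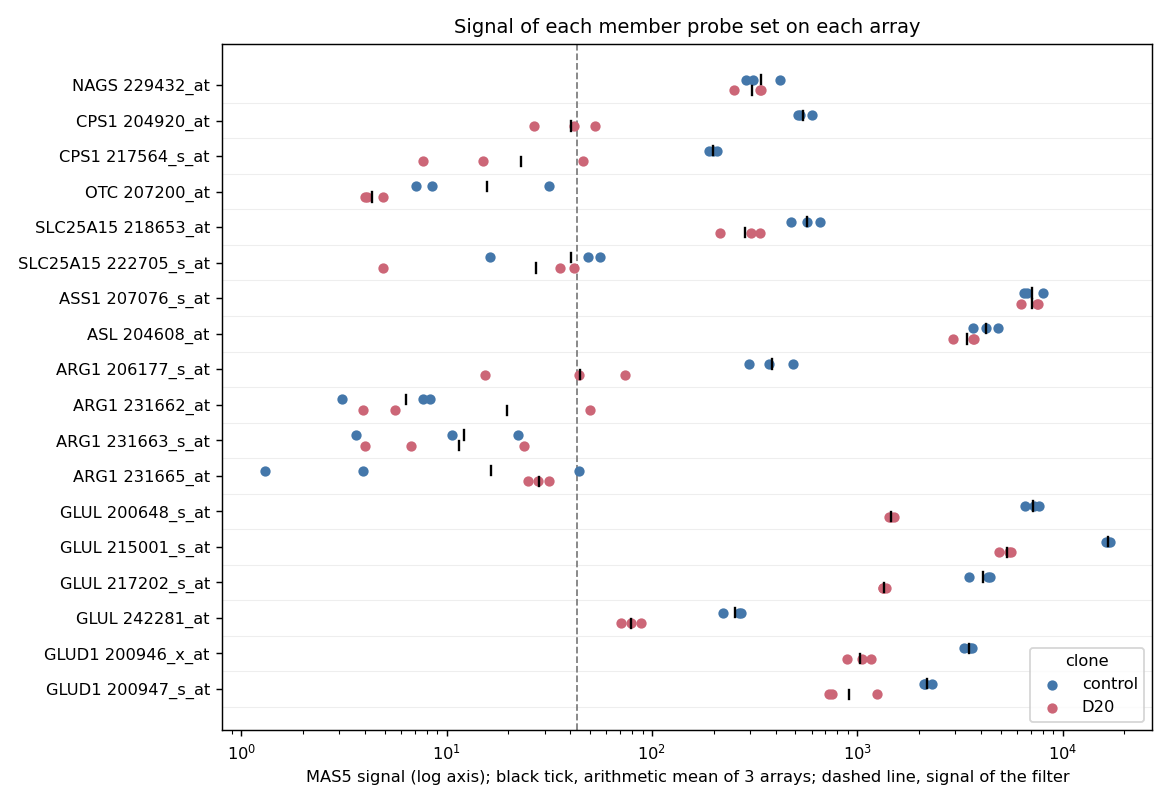
MAS5 signal (log axis) of each of the 18 member probe sets on each of the 3 control and 3 D20 arrays, with black ticks for arithmetic means and a dashed line at the signal of 43.2 used to leave out dim probe sets. The D20 points lie to the left of the control points for CPS1, GLUL and GLUD1, for SLC25A15 218653_at and for ARG1 206177_s_at, and are mixed with them for NAGS, ASS1 and ASL; OTC and the other probe sets of ARG1 and SLC25A15 have means to the left of the dashed line.

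NAGS, which makes the activator of CPS1, was measured by 229432_at. Its signal was 312.1, 418.9 and 286.9 on control arrays A, B and C, and 251, 336.4 and 338.6 on the D20 arrays. The clones overlapped. The log2 fold change was -0.12 ± 0.21 (SE, n = 3 per clone; 95% interval -0.58 to 0.33; limma, Benjamini-Hochberg adjusted p = 0.692), and it was 0.09 with scaling to the poly-A spike-in probe sets, so no direction is given.

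CPS1, the enzyme of the first step of the cycle, fell with both of its probe sets. For 204920_at the control arrays read 599.8, 514.8 and 524.9 and the D20 arrays 53.1, 26.6 and 41.6. Every control array was far above every D20 array. The mean went from 546.5 ± 46.4 to 40.4 ± 13.3 (SD, n = 3 each), the latter below 43.2, with a log2 fold change of -3.34 ± 0.28 (SE; 95% interval -3.94 to -2.74; limma, Benjamini-Hochberg adjusted p = 1.01e-06). The second probe set, 217564_s_at, read 206.7, 188.9 and 197.7 in the control clone and 15, 46.2 and 7.7 in D20. Its control arrays lay close together, while its D20 arrays were dim and scattered. Its name marks it as able to match several transcripts. Its log2 fold change was -2.58 ± 0.45 (SE; 95% interval -3.54 to -1.61; limma, Benjamini-Hochberg adjusted p = 0.000533). As the D20 signals were dim, the size depended on the pseudocount, from -3.77 with 1 to -2.55 with 64 for the first probe set and from -3.41 to -1.61 for the other.

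OTC, the next enzyme, was dim in both clones. Probe set 207200_at read 31.6, 8.5 and 7.1 on the control arrays and 4.1, 4.9 and 4 on the D20 arrays, all below 43.2, and was not tested. SLC25A15, the ornithine carrier that feeds OTC, was measured by 218653_at at 661, 569.2 and 476.6 in the control clone and at 214.9, 335.9 and 305.1 in D20. Each D20 array was below each control array. The mean went from 568.9 ± 92.2 to 285.3 ± 62.9 (SD, n = 3 each), a log2 fold change of -0.97 ± 0.20 (SE; 95% interval -1.41 to -0.53; limma, Benjamini-Hochberg adjusted p = 0.00226). Its other probe set, 222705_s_at, read between 4.9 and 55.6 over the 6 arrays and was not tested.

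ASS1, which joins citrulline to aspartate, was bright in both clones. Probe set 207076_s_at read 6518.6, 8003.1 and 6690.4 on the control arrays and 7523.6, 7613 and 6275.3 on the D20 arrays. The highest and the lowest signal were on control array B and D20 array C, and the clones overlapped. The log2 fold change was 0.01 ± 0.10 (SE, n = 3 per clone; 95% interval -0.21 to 0.24; limma, Benjamini-Hochberg adjusted p = 0.935), so the interval leaves out a change of the size seen for the carrier. It was -0.11 with the median of each array set equal and 0.24 with poly-A scaling, and was called under neither. The name of this probe set marks it as able to match several transcripts, so these values hold for the probe set and not surely for ASS1 alone.

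ASL, which releases arginine and fumarate, the latter an intermediate of the tricarboxylic acid cycle, gave a smaller difference near the threshold. Probe set 204608_at read 3661.4, 4840.3 and 4255.4 in the control clone and 3669.7, 3689.8 and 2925.1 in D20. Control array A was as low as D20 arrays A and B. The mean was 4252.4 ± 589 in the control clone and 3428.2 ± 436 in D20 (SD, n = 3 each), a log2 fold change of -0.31 ± 0.12 (SE; 95% interval -0.57 to -0.05; limma, Benjamini-Hochberg adjusted p = 0.0625). ASL was called lower under 5 of 15 other settings, among them without control array A (-0.41, adjusted p = 0.0255 by limma) and without D20 array B (-0.37, adjusted p = 0.0498 by limma), and with the array letter as a replicate block (-0.31, adjusted p = 0.0286 by limma).

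ARG1, arginase of the liver cytosol, which releases urea, fell with the only one of its 4 probe sets that was bright enough to be tested. On 206177_s_at the control arrays read 369.9, 298 and 486.9 and the D20 arrays 15.3, 74.1 and 44. The lowest control array was above the highest D20 array. The mean went from 384.9 ± 95.3 to 44.5 ± 29.4 (SD, n = 3 each), the latter close to 43.2, with a log2 fold change of -2.83 ± 0.39 (SE; 95% interval -3.67 to -1.99; limma, Benjamini-Hochberg adjusted p = 8.38e-05). As the D20 signals were dim, the size depended on the pseudocount, with -3.31 for 1 and -2.06 for 64. The other probe sets, 231662_at, 231663_s_at and 231665_at, read between 1.3 and 49.8 over the 6 arrays, overlapped between clones and were not tested, so the fall of ARG1 rests on 1 probe set. Its name, too, marks it as able to match several transcripts.

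GLUL, glutamine synthetase, was lower in D20 with all 4 of its probe sets. For 215001_s_at, the brightest of them, the control arrays read 16629.2, 16284.7 and 17061.9 and the D20 arrays 5635.7, 4888.1 and 5490. For 200648_s_at they read 6574.1, 7258.2 and 7672.2 in the control clone and 1426, 1504.1 and 1458.1 in D20. The arrays of each clone lay close together and far from those of the other. The means were 3.12-fold lower in D20 for 215001_s_at (log2 fold change -1.64 ± 0.08, SE) and 4.90-fold lower for 200648_s_at (-2.28 ± 0.09, SE). Probe set 217202_s_at went from 4081.7 ± 512 to 1349.4 ± 25.2 and 242281_at from 253.7 ± 26.9 to 79.5 ± 8.76 (SD, n = 3 each), log2 fold changes of -1.58 ± 0.11 and -1.50 ± 0.27 (SE). The arrays of the clones did not overlap in either. The adjusted p of the 4 probe sets by limma with Benjamini-Hochberg adjustment lay between 1.61e-09 and 0.00076. The names of 200648_s_at, 215001_s_at and 217202_s_at mark them as able to match several transcripts. Only 242281_at, the dimmest, carries no such mark.

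Within GLUL the estimated fall was larger with 200648_s_at than with the others. Its log2 fold change minus that of 215001_s_at was -0.64, minus that of 217202_s_at -0.70 and minus that of 242281_at -0.78. Each of these differences had an exact two-sided permutation p of 0.1, the smallest that 3 arrays against 3 can give, and 0.2 after Benjamini-Hochberg adjustment over the 8 pairs of tested probe sets of CPS1, GLUL and GLUD1. The other 3 probe sets of GLUL had differences of -0.14 to -0.06 between their log2 fold changes, with exact permutation p from 0.4 to 0.8. Their probe positions on the transcript were not used here.

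GLUD1, glutamate dehydrogenase, was lower with both probe sets. For 200946_x_at the control arrays read 3330.1, 3548.2 and 3617.8 and the D20 arrays 896.2, 1161.6 and 1051.6. For 200947_s_at they read 2301.8, 2117 and 2143.7 in the control clone and 727.5, 754.9 and 1242.9 in D20. D20 array C stood above the other D20 arrays in the latter probe set but below every control array. The log2 fold changes were -1.75 ± 0.11 and -1.30 ± 0.17 (SE, n = 3 per clone; 95% intervals -1.99 to -1.50 and -1.67 to -0.92), with adjusted p of 9.77e-08 and 6.17e-05 by limma with Benjamini-Hochberg adjustment. The names of both probe sets mark them as able to match more than 1 transcript, and GLUD1 has a near-identical retrogene, GLUD2, so the signal cannot be assigned to GLUD1 alone.

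**Figure D2:**
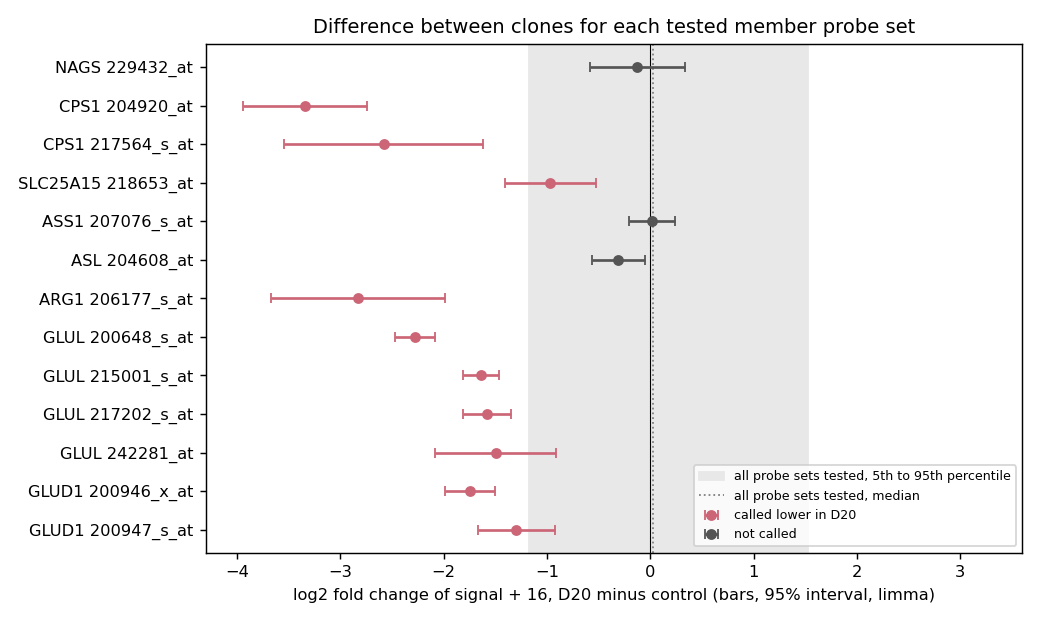
Log2 fold change of signal + 16, D20 minus control, for the 13 tested member probe sets, with 95% intervals from limma; red points were called lower and grey points were not called, and the grey band spans the 5th to 95th percentile (-1.18 to 1.53) of all probe sets tested. The points of CPS1, ARG1, GLUL and GLUD1 lie to the left of the band, that of SLC25A15 inside it at -0.97, and those of NAGS, ASS1 and ASL near 0.

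Each of the 10 calls was kept, in the same direction, under every setting in which the probe set was tested. GLUL 200648_s_at ranged from -2.40 to -2.06 and GLUD1 200946_x_at from -1.87 to -1.53 over 15 other settings. SLC25A15 ranged from -1.09 to -0.75, with an adjusted p by limma of at most 0.0197, reached without the variance trend. ARG1 206177_s_at and CPS1 217564_s_at were tested in 14 of the 15, being too dim for the filter that left out 60%. With poly-A scaling, which moved the median of all probe sets tested to 0.24, each of the 10 was still called lower.

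**Figure D3:**
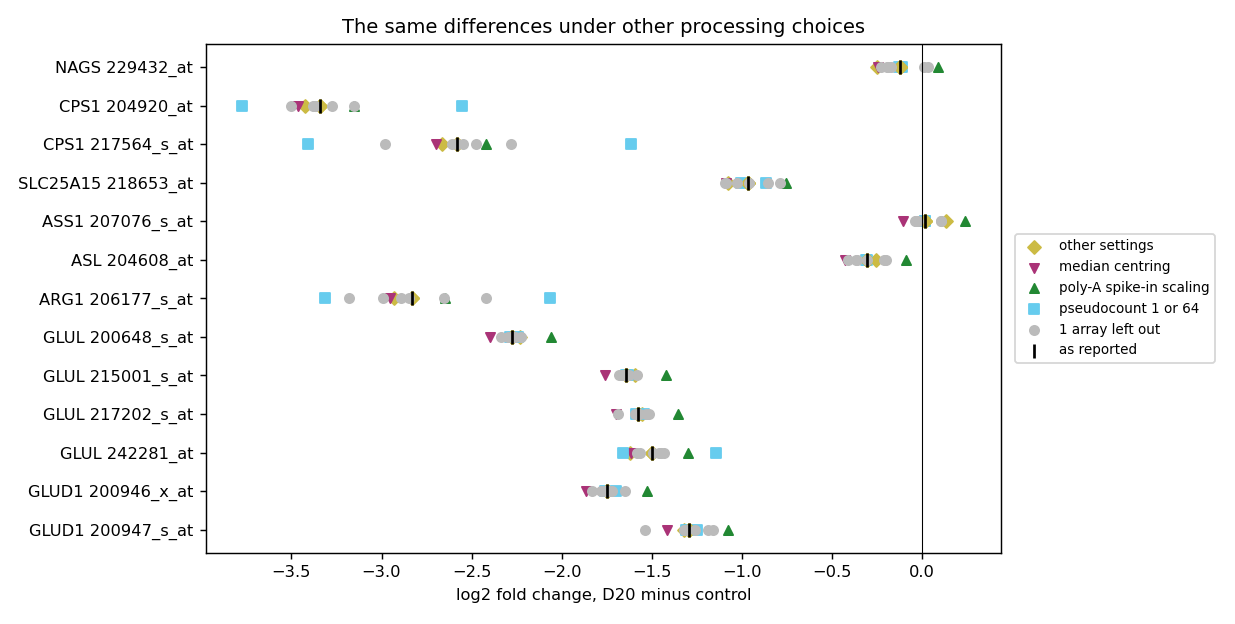
Log2 fold change, D20 minus control, of the 13 tested member probe sets as reported (black ticks) and under 15 other settings (coloured points; grey circles leave out 1 array each). The pseudocounts of 1 and 64 move CPS1 and ARG1 the most, poly-A scaling moves each probe set to the right, and NAGS and ASS1 have points on both sides of 0.

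Genes next to the members on the chromosomes were looked at with the same fit. Among the 20 tested genes around CPS1, 10 on each side, 7 were higher and 2 lower in D20 with a median log2 fold change of 0.27. Around ARG1 7 were higher and 5 lower (median -0.06), around SLC25A15 3 and 5 (-0.15), around GLUL 3 and 3 (-0.11) and around GLUD1 4 and 2 (0.05). Over all genes tested 23.7% were higher and 20.8% were lower, and the median was 0.04. The medians of the neighbours thus lay between -0.15 and 0.27 around the 5 genes that fell.

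The arrays and the cells were compared over the whole table. Trimmed mean signals were 500.06 to 500.07, and medians were 77.5 to 83.9 in the control clone and 85.9 to 92.2 in D20. Arrays of a clone correlated over the tested probe sets, as a description across genes, with Pearson's r of 0.964 to 0.967 (control) and 0.953 to 0.962 (D20), and arrays of different clones with 0.880 to 0.890. The log2 ratio of 3′ to 5′ signal of GAPDH was 0.11 to 0.21 in the control clone and 0.15 to 0.33 in D20 (exact two-sided permutation p = 0.4, n = 3 per clone), and that of ACTB was 0.51 to 0.92 and 0.48 to 0.75 (exact two-sided permutation p = 0.3). The poly-A spike-in probe sets averaged 9.14 to 9.32 in log2 signal in the control clone and 8.97 to 9.03 in D20 (exact two-sided permutation p = 0.1, the smallest possible). Their part in the result was not tested beyond the scaling above.

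Most hepatocyte markers, but not all, were lower in D20. Of 11 listed markers 10 were named on the array, each with a mean above 43.2 in both clones, and 7 were lower, 1 was higher and 2 were not called. Over all genes tested 20.8% were lower and 23.7% were higher. The sum of their signals was 222597 to 231476 on the control arrays and 113763 to 126629 on the D20 arrays. This sum and those below are weighted towards the brightest probe sets and do not measure the number of cells. The secreted proteins AFP (log2 fold change -5.62), APOA1 (-3.33), TTR (-2.99), TF (-2.37), APOB (-1.20) and SERPINA1 (-0.54) and the keratin KRT18 (-0.35, not called with poly-A scaling) were lower, FGB, a fibrinogen chain, was higher (1.71), and KRT8 was at -0.27. ALB, albumin, was at 0.00 with its brightest probe set, at -0.44 as the mean over its tested probe sets and at -2.39 with the brightest one whose name carries no mark of cross-matching (_s_at or _x_at). With the brightest probe set free of that mark APOA1 was at -1.66, TF at -2.25 and SERPINA1 at -1.89, all called lower. APOB, KRT18 and KRT8 had no tested probe set free of it. The sizes and the order of these falls thus depend on the probe set. In cultures measured in bulk, fewer cells of a kind and less RNA per cell cannot be told apart. Among biliary markers EPCAM (0.41), KRT19 (0.39) and SPP1 (1.09) were higher, SOX9 (-0.65) was lower and 1 was not called (summed signal 19571.5 to 20407.9 in the control clone, 20923.3 to 23728.1 in D20). KRT19 was not called without control array A, D20 array A or D20 array B, nor SPP1 without control array A or C or D20 array A or C. Among 6 fibroblast markers 0 were higher by limma (0 also at an unadjusted p below 0.05) and 1, LUM, was lower, with sums of 571.6 to 791.4 and 314.5 to 747.2. In D20, 2 of them had means below 43.2. LUM was one of these, at 8.3, so it entered the test through the control arrays. Of 4 endothelial markers 1, PECAM1, was tested and higher (1.63) and the other 3 were below 43.2 in both clones, the sums being 101.6 to 172.1 and 244.1 to 324.3. PECAM1 was itself dim in the control clone, at 38.8, 106.7 and 41.9. Its D20 mean of 213.1 was most of the sum in D20. Of 3 blood cell markers on the array HBB was tested and not called and 2 were below 43.2 in both clones, with sums of 127.7 to 194.5 and 51.8 to 181.2. The part of these shifts in the differences of the members was not tested.

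The other genes of the urea cycle were mostly not called. For this list and those below, the shares over all genes tested were 23.7% higher and 20.8% lower. Of 8 on the array 7 were tested, with 0 higher by limma (1 at an unadjusted p below 0.05), 1 lower and 6 not called, and a median of 0.07. Among those not called, SLC25A12, CA5B and SLC25A2 were dim, with standard errors of 0.48, 0.57 and 0.57, so sizeable changes in them could be missed. The one that fell was SLC25A13, citrin, the mitochondrial carrier that exports the aspartate used by ASS1. It read 5359.8, 4989.3 and 5535.9 on the control arrays and 1934, 1597 and 1975.6 on the D20 arrays, which did not overlap. Its log2 fold change was -1.53 ± 0.10 (SE, n = 3 per clone; limma, Benjamini-Hochberg adjusted p = 1.47e-07). ARG2, the mitochondrial arginase, was at 1543 ± 73.3 in the control clone and 1929 ± 270 in D20 (SD, n = 3 each; log2 fold change 0.31, limma adjusted p = 0.0538). It was called higher with poly-A scaling (0.53), with the 60% dimmest left out, with the replicate block and without D20 array C.

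Among other enzymes that use glutamine or glutamate, 11 were tested, of which 3 were higher, 3 lower and 5 not called (median 0.11). These counts are near the shares over all genes tested, 23.7% higher and 20.8% lower. GAD1, which makes GABA from glutamate, went from 347.9, 369.5 and 331.2 to 1435.3, 1440.4 and 1448.7, a log2 fold change of 2.00 ± 0.13 (SE, n = 3 per clone; limma, Benjamini-Hochberg adjusted p = 9.06e-08). The glutamine-dependent enzymes ASNS (0.49), which makes asparagine, and CAD (0.46), which starts pyrimidine synthesis, were higher. PFAS (-1.27) and PPAT (-0.64), enzymes of purine synthesis, and NADSYN1 (-0.65), of NAD synthesis, were lower, but with the brightest probe set free of that mark PPAT was at -0.49 and not called, and NADSYN1 was at 0.39. NADSYN1 was also not called with poly-A scaling or without control array C. GLUD2 was not analysed here.

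Carriers of glutamine, glutamate and cationic amino acids went both ways, with 6 of 21 higher, 8 lower and 7 not called (median 0.06). Of all genes tested 23.7% were higher and 20.8% lower. SLC1A1, a glutamate transporter of the plasma membrane, was dim in the control clone at 24.3, 41.1 and 20.7 and read 444, 535.5 and 494.8 in D20 (log2 fold change 3.53 ± 0.30, SE; limma, Benjamini-Hochberg adjusted p = 1.21e-06). Its control mean was below 43.2, and the log2 fold change ran from 2.59 to 4.11 over the other settings. SLC38A3, a glutamine transporter of hepatocytes, went from 1529.9 ± 264 to 527.6 ± 14.7 (SD, n = 3 each; -1.49). SLC1A2, another glutamate transporter, was at -2.10 and the mitochondrial glutamate carrier SLC25A18 at -2.21, the latter not called without the variance trend (adjusted p = 0.0501 by limma). SLC1A2 read a scattered 189.8, 59 and 122 in the control clone, and its D20 mean of 14.2 was below 43.2. Its log2 fold change ran from -2.22 to -1.20 over the other settings, and its probe set carries the cross-matching mark. Of the widely used glutamine carriers, SLC1A5 was at -0.10 (adjusted p = 0.666 by limma) and SLC38A2 at 0.32, called but lost under 3 of 15 settings, among them without D20 array C.

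Enzymes that use ornithine or make proline and polyamines counted 4 higher, 7 lower and 6 not called of 17 tested (median -0.11). The number higher was 7 with poly-A scaling. Of all genes tested 23.7% were higher and 20.8% lower. ODC1, which turns ornithine into putrescine, went from 10873.7 ± 672 to 3712.4 ± 130 (SD, n = 3 each), a log2 fold change of -1.55 ± 0.08 (SE; limma, Benjamini-Hochberg adjusted p = 1.76e-08). OAT, the aminotransferase that links ornithine to glutamate, was lower at -0.80, as were ALDH4A1 (-1.42) of proline breakdown and GAMT (-1.30) of creatine synthesis. The 4 genes that were higher, SMS and AMD1 of polyamine synthesis, PAOX of polyamine breakdown and AZIN1, which protects ODC1 from its inhibitor, had log2 fold changes of 0.27 to 0.43, and the calls of PAOX and AZIN1 were lost without control array A, B or C or D20 array C, that of PAOX also without D20 array B. AGMAT was lower at -1.15 but was at -0.50 and not called with the brightest probe set free of the cross-matching mark. PAOX was at 0.04 with the brightest one free of it and at -0.45 as the mean over its probe sets, called in neither. Transaminases and other enzymes of amino acid breakdown were lower in 10 of 16, higher in 3 and not called in 3 (median -0.63), with 6 lower under poly-A scaling. BCAT1, a branched-chain aminotransferase (-1.59), FAH, the last enzyme of tyrosine breakdown (-1.45), and HAL, which deaminates histidine (-1.14), were lower, and HPD, another enzyme of tyrosine breakdown (1.67), BCAT2, the mitochondrial branched-chain aminotransferase (0.72, but 0.35 and not called as the mean over its probe sets), and AMT of glycine cleavage (0.63) were higher.

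Of 15 regulators with a known part in the transcription of urea cycle genes or of GLUL, 5 were higher, 5 lower and 5 not called (median -0.08). For these and for the zone genes below, the shares over all genes tested were 23.7% higher and 20.8% lower. GCGR, the glucagon receptor, was higher at 194.6 ± 38.5 against 66.1 ± 35.5 (SD, n = 3 each; log2 fold change 1.46). TBX3 (-1.43) and TCF7L2 (-0.99), which belong to the Wnt pathway, and the liver factor FOXA2 (-0.99) were lower, as were LGR5 (-0.81) and beta-catenin, CTNNB1 (-0.61). CEBPD (0.94), the glucocorticoid receptor NR3C1 (0.52), CEBPB (0.28) and ATF4 (0.25) were higher. NR3C1 was at 0.19 and not called with the brightest probe set free of the cross-matching mark. The calls of CTNNB1 and CEBPB were lost without control array A, control array C or D20 array A, and that of ATF4 without control array A or C. CEBPA was at -0.22 (adjusted p = 0.115 by limma) and was called lower in 3 of 15 settings, among them without D20 array B. HNF4A was not analysed here. The list of genes of the pericentral zone, where GLUL lies in liver, had 2 higher, 6 lower and 2 not called of 10 tested (median -0.62). TBX3, CYP1A2 (-1.60) and SLC1A2, which was dim in D20, were lower. GSTM1 (1.29) and RHBG, an ammonia channel (1.46), were higher. RHBG was not called without control array A, D20 array A or D20 array B, nor CYP1A2 without control array C. Without the variance trend neither of them was called. The probe sets of GSTM1 and CYP1A2 carry the cross-matching mark, and neither gene had a tested one free of it. Of 5 tested genes of the periportal zone, where urea cycle genes lie, HAL and the arginine carrier SLC7A2 (-1.10) were lower, CDH1 (0.82) was higher and 2 were not called. Some genes stand in more than 1 of these lists.

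**Figure D4:**
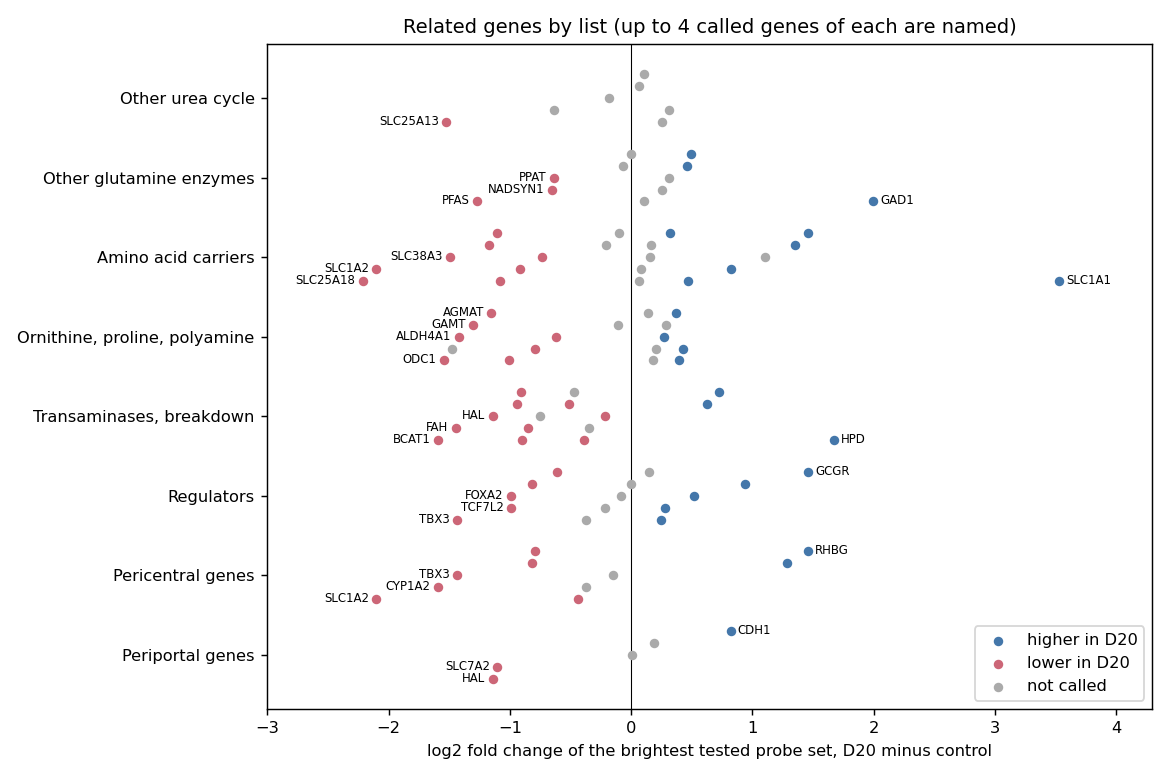
Log2 fold change, D20 minus control, of the brightest tested probe set of each gene in 8 lists of related genes, with blue points called higher, red points called lower and grey points not called; up to 4 called genes of each list are named. SLC25A13 is the only called point among the other urea cycle genes, the transaminase and pericentral lists lie mostly left of 0, and SLC1A1, dim in the control clone, lies right of 0 at 3.53.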

How the data were processed

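Total RNA (5 µg per array) from Hep3B clones was measured on 6 arrays, and groups were taken from the labels' source names. The deposited intensity values are linear signals computed by MAS5, per the submitters' processing notes, its version and scaling target being not given in the sources used here. Probe sets were named by the platform's annotation, updated to current symbols of RefSeq (GRCh38.p14): of 54675, 41091 had 1 symbol, 1801 several and 11721 were not listed. The 62 control probe sets and the 40% dimmest of the rest were left out. Dimness was judged by the mean of log2(signal + 16) over the arrays, with a cut that corresponds to a signal of 43.2. log2(signal + 16) was fitted with limma 3.58.1 in R 4.3.3 (lmFit, eBayes with a variance trend, two-sided, no covariate), with Benjamini-Hochberg adjustment over 32768 probe sets and a threshold of 0.05. The fit was tested on simulated data. Single values were compared by exact permutation.

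The members and lists were chosen with earlier results of these data known. The members were named in full. Of each related list up to 4 called genes with the largest log2 fold change were named, with ARG2, GLUD2, OAT, ASNS, SLC25A13, SLC1A5, SLC38A2, HNF4A, CEBPA and the hepatocyte markers; CAD, GSTM1, BCAT2, AMT, SMS, AMD1, PAOX, AZIN1, LGR5, CTNNB1, CEBPD, CEBPB, NR3C1, ATF4 and the markers of other cell types were named after their values were seen. Some items are not reported here. A gene stood for its brightest tested probe set. Promoters were RefSeq's. The number of arrays limits the precision.

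Arrays with the same letter did not deviate together, with correlations of -0.02, 0.05 and 0.0074 after removal of clone means, so the letters were not taken to pair the samples. The settings tried were other scalings, pseudocounts, filters, no variance trend, a replicate block and leaving out each array.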

Additional observations from a re-analysis of the deposited data

How the results depend on the processing

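Over 15 other settings the 10 calls of lower member probe sets kept their direction and stayed past the threshold wherever the probe set was tested, and 9 to 11 member probe sets were lower. The count was 11 with medians set equal, with the replicate block and without control array A or D20 array B, each time by the addition of ASL (-0.43 to -0.31), and it was 9 with the 60% dimmest left out. Without the probe sets marked as able to match several transcripts 3 member probe sets were lower, those of CPS1, SLC25A15 and GLUL. Leaving out 1 array gave 10 to 11 lower and 0 higher members, and over all probe sets tested 5354 to 5865 higher and 4361 to 5453 lower. With poly-A scaling 9128 were higher and 3341 lower, so that 73.2% of the calls were higher against 53.5% as reported; with medians set equal it was 42.0%. NAGS ranged from -0.25 to 0.09 and ASS1 from -0.11 to 0.24, neither called in any setting. With the replicate block, where 6658 probe sets were higher and 5899 lower, ASL was called (-0.31, adjusted p = 0.0286 by limma) and no other member changed its call; 1 of 3 control arrays deviated most like the D20 array of its letter. Of the counts of related lists under these settings, 26 moved by over 1.5 times and 246 did not. The cause of these changes was not tested. Dim signals limit what can be said of OTC, of 3 probe sets of ARG1 and of the size of the falls of CPS1 and ARG1.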
